A study of Homo sapiens with 6 samples.

Results

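The transcripts of 6 mismatch repair genes, *MSH3*, *MSH6*, *MLH3*, *PMS1*, *PMS2* and *EXO1*, were examined in A2780 cells treated with the MTH1 inhibitor TH588. The members were chosen by symbol, and all 6 were found by their Ensembl identifiers among the 58336 genes of the count table. A2780 is an ovarian cancer cell line in long-term culture. Cells received DMSO as vehicle or 6 µM TH588 (TH-588 in the labels) for 48 h, in RPMI medium with serum and insulin, and polyadenylated RNA was sequenced from 3 independent experiments per treatment (libraries A, B and C). All 6 libraries came from this 1 line, with no other genotype or dose. TH588 is a first-generation inhibitor of MTH1, the enzyme that removes oxidized nucleotides such as 8-oxo-dGTP from the nucleotide pool. Total counts were 28537837 in TH588 library A and between 77634048 and 99074175 in the other 5 libraries. The small nucleolar RNA *SNORD3A* took 21.9% of the counts of TH588 library A and 7.68% to 13.0% of those of the others.

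Mismatch repair corrects base mispairs and small insertion or deletion loops left behind by DNA polymerases. MutS heterodimers recognise the mispair, with *MSH6* encoding the variable subunit of MutSα and *MSH3* that of MutSβ. MutL heterodimers are then recruited, with *PMS2*, *PMS1* and *MLH3* encoding the variable subunits of MutLα, MutLβ and MutLγ. The strand that holds the error is removed by the exonuclease EXO1, and the gap is filled by polymerase δ with the PCNA clamp and sealed by a ligase. The shared subunits of the MutS and MutL heterodimers were not analysed here.

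After TH588, 4 of the 6 members fell and none rose at an adjusted p under 0.05. *EXO1* fell most, 4.37-fold, followed by *MSH6*, *MSH3* and *PMS1*. The change of *PMS2* and that of *MLH3* did not pass the threshold. Of the 15844 genes tested, 49.6% passed the same threshold, 25.3% as lower and 24.2% as higher, so a fall on its own was common in these libraries. The median log2 fold change was -0.56 over the 6 members and 0.019 over all genes tested. All 6 members passed the filter on low counts. Groups did not overlap for 4 members, against 57.7% of all genes tested. As RNA was taken from whole cultures, fewer cells that express a gene and less of its RNA per cell cannot be told apart.

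The promoter windows of *EXO1*, *MSH6* and *MSH3*, which fell, and of *MLH3*, whose change did not pass the threshold, are shown. Those of *PMS1*, which fell, and *PMS2*, which did not pass, are not printed. Each window runs from 250 bases before the RefSeq start site to 50 bases from it, in the direction of transcription, on GRCh38.p14, and the most upstream window is given where RefSeq lists several. Capitals mark words of the E2F type, the word TTCCCGC, the word TTGGCGC, the word TTCGCGC and the word TTGCCGC, on either strand and with overlaps counted. E2F factors govern many genes of DNA replication.
*EXO1*, chr1:241847954-241848253, plus strand: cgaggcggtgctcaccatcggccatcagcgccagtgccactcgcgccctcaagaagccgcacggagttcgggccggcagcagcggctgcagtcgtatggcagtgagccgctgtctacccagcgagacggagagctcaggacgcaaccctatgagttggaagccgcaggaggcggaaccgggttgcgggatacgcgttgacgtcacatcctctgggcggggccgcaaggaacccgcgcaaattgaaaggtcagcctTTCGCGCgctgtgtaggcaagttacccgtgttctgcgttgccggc
*MSH6*, chr2:47782895-47783194, plus strand: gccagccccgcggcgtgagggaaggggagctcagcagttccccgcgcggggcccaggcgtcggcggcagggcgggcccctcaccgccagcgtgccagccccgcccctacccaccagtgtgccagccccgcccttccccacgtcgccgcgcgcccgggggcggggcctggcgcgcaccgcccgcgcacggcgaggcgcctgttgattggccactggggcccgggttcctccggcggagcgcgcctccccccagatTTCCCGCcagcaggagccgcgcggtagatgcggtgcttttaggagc
*MSH3*, chr5:80654402-80654701, plus strand: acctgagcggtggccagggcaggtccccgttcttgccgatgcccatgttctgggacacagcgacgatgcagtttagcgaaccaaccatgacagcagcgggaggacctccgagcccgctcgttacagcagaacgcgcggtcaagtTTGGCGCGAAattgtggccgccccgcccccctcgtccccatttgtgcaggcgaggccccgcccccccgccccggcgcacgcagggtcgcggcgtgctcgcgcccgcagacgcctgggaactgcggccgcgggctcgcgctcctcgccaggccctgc
*MLH3*, chr14:75051418-75051717, minus strand: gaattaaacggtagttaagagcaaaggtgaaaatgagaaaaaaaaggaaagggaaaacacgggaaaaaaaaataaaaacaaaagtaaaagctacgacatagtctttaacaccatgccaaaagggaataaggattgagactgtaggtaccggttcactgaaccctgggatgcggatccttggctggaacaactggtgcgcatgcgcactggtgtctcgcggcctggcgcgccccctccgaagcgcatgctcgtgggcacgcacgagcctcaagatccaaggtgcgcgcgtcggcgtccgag

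Such words occurred in these windows of 5 of the 6 members, against 13.0% of 35116 RefSeq windows of the same length. They also occurred in 9 of the 12 gap filling genes, described further on, that were matched to a window. They lay 4 bases after the start site in *MSH6* and 5 bases after it in *EXO1*. In *MSH3* an overlapping pair began 106 and 103 bases before the start site. *PMS1* and *PMS2*, whose windows are not printed, held a word 38 and 42 bases before it, although the change of *PMS2* did not pass the threshold. The window of *MLH3* held none. Among the gene neighbours described further on, *AIMP2*, which fell, held a word in its most upstream window. So did *ORMDL1* and *ACYP1*, whose changes did not pass the threshold, while *FBXO11* held none there. The words of *AIMP2* and *ORMDL1* are the same bases as those of *PMS2* and *PMS1*, read from the other strand, and are not further words. The search began with the word TTCCCGC and the word TTGGCGC, which 3 members (*MSH3*, *MSH6* and *PMS1*) and 9.23% of windows held. The other words, which brought in *EXO1* and *PMS2*, were added after the windows had been seen, so the count of 5 members is not a test. The RefSeq windows were not matched for base content, and those of the members held from 51% (*MLH3*) to 78% (*MSH6*) G and C. The word TTTGAA, known as the CHR element of cell cycle genes, was in the window of 0 of 6 members and in 15.2% of all windows. The words are matches of letters, and binding of a factor was not measured.

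Levels are compared between genes only per length, as CPM (read counts scaled to TMM library sizes) divided by the kilobases of exon in the count table. With DMSO, *MSH6* had the highest level per kilobase, 66.2 ± 2.58 CPM per kb (SD, n = 3). It was followed by *EXO1* with 33.7 ± 1.60, *PMS2* with 27.8 ± 0.624 and *MSH3* with 15.4 ± 0.331 CPM per kb (SD, n = 3 each). *PMS1* had 13.2 ± 0.287 and *MLH3* 7.42 ± 0.156 CPM per kb (SD, n = 3 each). No neighbours in this order overlapped between libraries. With TH588, *MSH6* stayed first at 36.7 ± 1.49 CPM per kb, *PMS2* came second at 25.1 ± 2.11 and *EXO1* last at 7.70 ± 0.558 CPM per kb (SD, n = 3 each). *MSH3* (10.1 ± 0.910) and *PMS1* (9.25 ± 0.577 CPM per kb) overlapped there, as did *MLH3* (7.86 ± 0.462 CPM per kb) and *EXO1* (SD, n = 3 each). The scale depends on the gene model. The table gives *MSH6* 10993 exon bases, against 4265 in its canonical GENCODE transcript, with which its level with DMSO would be 171 CPM per kb. On canonical lengths *PMS1* (22.8 CPM per kb) lay above *PMS2* (21.5 CPM per kb), the reverse of the order on table lengths, and with TH588 *MLH3* (8.40 CPM per kb) was last, below *EXO1* (9.24 CPM per kb).

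*MSH6* (ENSG00000116062, chromosome 2, 47695530 to 47810101, plus strand, GRCh38) was the more abundant MutS member. Its CPM was 698, 732 and 754 across DMSO libraries A to C, against 402, 388 and 420.2 across TH588 libraries A to C. The 3 treated libraries lay close together and far below the controls. The log2 fold change was -0.85 (standard error 0.077, 95% interval -1.02 to -0.69, edgeR adjusted p = 2.62e-06), a 1.81-fold lower level. Exons of *FBXO11* on the opposite strand overlap 16.2% of its exon bases. Without strand in the counting, which is not stated, reads there cannot be assigned. *FBXO11* itself, which encodes an F-box protein, had a log2 fold change of -0.06 (edgeR adjusted p = 0.638), but without TH588 library A, the shallowest, it passed as lower at -0.18 (edgeR adjusted p = 0.0416).

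*MSH3* (ENSG00000113318, chromosome 5, 80654648 to 80876460, plus strand) encodes the MutSβ subunit, which binds larger loops. Its CPM was 72.0, 71.1 and 74.1 across DMSO libraries A to C, against 43.8, 46.4 and 52.2 across TH588 libraries A to C. The groups did not overlap, and the treated libraries were more spread than the controls. Its log2 fold change was -0.61 (standard error 0.084, 95% interval -0.79 to -0.42, edgeR adjusted p = 8.32e-05), or 1.52-fold lower.

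The exonuclease gene *EXO1* (ENSG00000174371, chromosome 1, 241847967 to 241895148, plus strand) showed the largest change of the 6. Its CPM was 132, 143 and 144 across DMSO libraries A to C, against 31.0, 30.1 and 34.5 across TH588 libraries A to C. The lowest control library was thus well above the highest treated one. The log2 fold change was -2.13 (standard error 0.086, 95% interval -2.31 to -1.94, edgeR adjusted p = 1.40e-08), 4.37-fold lower. Only 4.76% of all genes tested were lower at an adjusted p under 0.05 with a fold of 2 or more, and *EXO1* was the member among them. Of all genes tested, 0.196% had a lower log2 fold change. No exon of another gene in the table overlaps its exons.

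**Figure D1:**
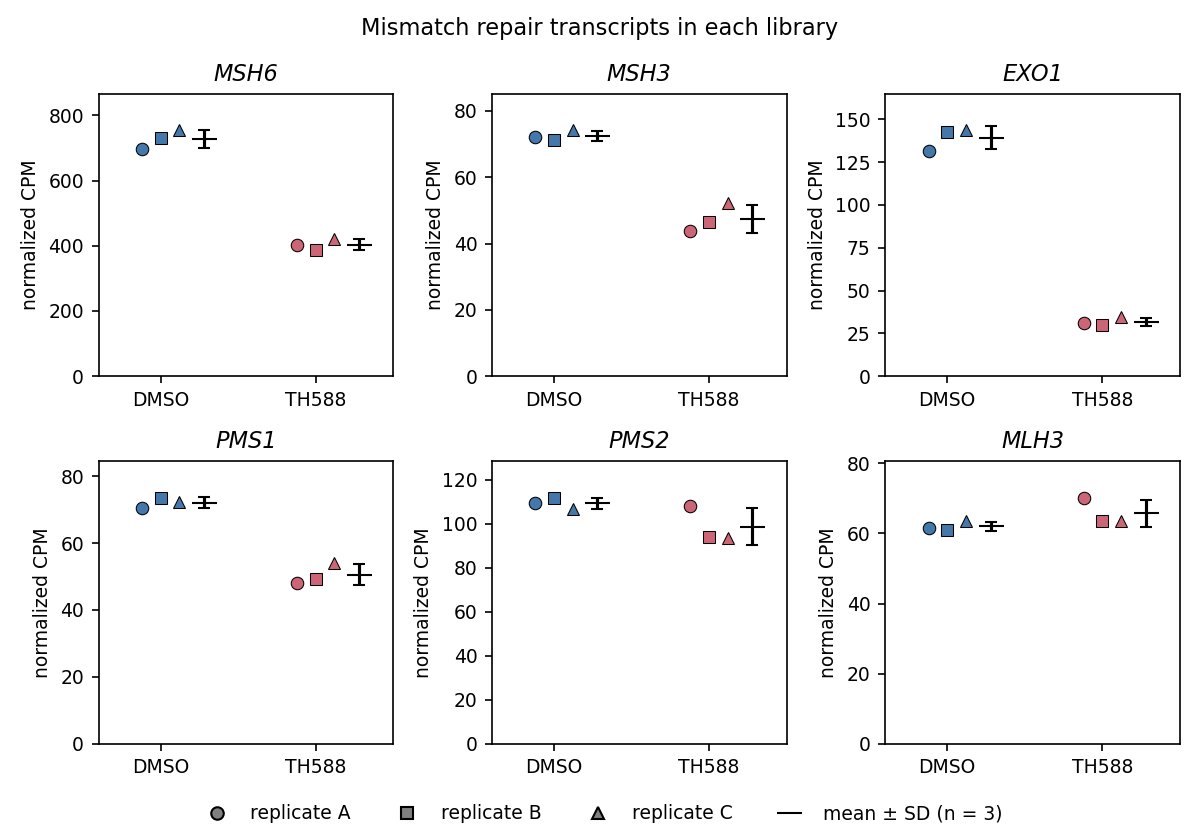
Normalized CPM (vertical axes, from 0) of the 6 members in each of 3 DMSO and 3 TH588 libraries, with marker shapes for the replicate letter and the mean ± SD beside them. *EXO1* fell from 132 to 144 CPM to 30.1 to 34.5 CPM, *MSH6*, *MSH3* and *PMS1* also separated, and *PMS2* and *MLH3* overlapped between the groups.

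Among the MutL members, *PMS1* fell, and *PMS2* and *MLH3* did not pass the threshold. *PMS1* (ENSG00000064933, chromosome 2, 189784085 to 189877629, plus strand), the MutLβ subunit, stood at 70.4, 73.5 and 72.3 CPM across DMSO libraries A to C, against 48.0, 49.3 and 54.0 CPM across TH588 libraries A to C. All treated libraries were below all controls. Its log2 fold change was -0.51 (standard error 0.078, 95% interval -0.68 to -0.34, edgeR adjusted p = 0.000176), 1.43-fold lower. *ORMDL1*, a regulator of sphingolipid synthesis, starts 286 bases away in the opposite direction, and its exons overlap 1.89% of those of *PMS1*. *ORMDL1* had a log2 fold change of -0.13 (95% interval -0.38 to 0.13, edgeR adjusted p = 0.401), so only *PMS1* passed the threshold, although the intervals overlapped and the difference was not tested.

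*PMS2* (ENSG00000122512, chromosome 7, 5973239 to 6009125, minus strand) encodes the endonuclease subunit of MutLα. Its CPM was 109, 112 and 107 across DMSO libraries A to C, against 108, 94.1 and 93.7 across TH588 libraries A to C. Only TH588 library A lay within the range of the controls. The log2 fold change was -0.15 (standard error 0.082, 95% interval -0.33 to 0.030, edgeR adjusted p = 0.154). Without TH588 library A, the shallowest library, it was -0.21 with an adjusted p of 0.0235 from edgeR's test, so whether *PMS2* passed the threshold depended on that library. *AIMP2*, a scaffold subunit of the aminoacyl-tRNA synthetase complex, starts 120 bases from *PMS2* in the opposite direction. *AIMP2* fell with a log2 fold change of -0.64 (95% interval -0.85 to -0.43, edgeR adjusted p = 0.000153), an interval wholly below that of *PMS2*, although the difference was not tested. Exons of *EIF2AK1* on the opposite strand overlap 28.9% of the exon bases of *AIMP2*, and the handling of strand in the counting is not stated.

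Values of *PMS2* are uncertain because the genome holds many partial copies of it and how reads that match several of them were counted is not stated. The 15 pseudogenes listed summed to between 141 and 149 CPM in the DMSO libraries and to between 130.4 and 142 CPM in the TH588 libraries. *PMS2* thus made up 42.9% to 43.2% of the CPM of *PMS2* and its copies with DMSO and 40.1% to 43.3% with TH588. Of the 13 pseudogenes tested, 2 were higher, 1 was lower and 10 did not pass the threshold. *PMS2P1*, the most abundant copy, fell from 73.5 ± 3.47 to 55.8 ± 1.98 CPM (SD, n = 3 each; log2 fold change -0.40, edgeR adjusted p = 0.000969). Exons of other genes on the opposite strand overlap 28.7% of its exon bases. *PMS2P6* rose from 1.54 ± 0.212 to 3.95 ± 0.768 CPM (SD, n = 3 each; log2 fold change 1.38, edgeR adjusted p = 7.58e-05). *PMS2CL*, a copy of the distal part of the gene, did not pass the threshold (log2 fold change -0.11, edgeR adjusted p = 0.508), at 11.6 ± 1.26 CPM in vehicle and 10.8 ± 1.34 CPM in treated libraries (SD, n = 3 each). The other pseudogene called higher, *PMS2P10*, rested on 1 library: it had 14.3 CPM in TH588 library B and at most 1.55 CPM in every other library, and its log2 fold change went from 2.89 to 0.22 (edgeR adjusted p = 0.867) without that library.

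*MLH3* (ENSG00000119684, chromosome 14, 75013764 to 75051532, minus strand), the MutLγ subunit with a known part in meiotic crossing over, did not pass the threshold. Its CPM was 61.6, 61.1 and 63.6 across DMSO libraries A to C, against 70.2, 63.5 and 63.4 across TH588 libraries A to C. Only TH588 library A lay outside the range of the controls. The log2 fold change was 0.080 (standard error 0.077, 95% interval -0.088 to 0.25, edgeR adjusted p = 0.417), so a fall of the size seen in *PMS1* was outside the interval. Without TH588 library A it was 0.043. *ACYP1*, an acylphosphatase gene upstream on the same strand, had a log2 fold change of 0.0039 (95% interval -0.38 to 0.39, edgeR adjusted p = 0.988).

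Because MSH6 and MSH3 compete for a shared partner, and PMS2, PMS1 and MLH3 for another, ratios of counts per kilobase were taken within each library, where scaling between libraries cancels. The height of a ratio depends on the exon lengths, here those of the count table, while its log2 difference between treatments does not. On canonical lengths *PMS2* lay below *PMS1* with DMSO (21.5 against 22.8 CPM per kb). The *MSH6* to *MSH3* ratio was 4.15, 4.41 and 4.36 across DMSO libraries A to C, against 3.93, 3.58 and 3.45 across TH588 libraries A to C. It was lower in each treated library than in each control, by 0.24 on the log2 scale. The *PMS2* to *PMS1* ratio was 2.15, 2.11 and 2.05 with DMSO and 3.12, 2.64 and 2.40 with TH588, in the same order of libraries. It was higher in each treated library, by 0.36 on the log2 scale, and most so in TH588 library A. The *PMS2* to *MLH3* ratio was 3.77, 3.89 and 3.57 with DMSO and 3.28, 3.15 and 3.14 with TH588. It was lower in each treated library, by 0.23 on the log2 scale. Each of the 3 ratios gave p = 0.1 in an exact two-sided permutation test over 3 against 3 libraries, which is the smallest value this design can give, and 0.1 after adjustment over the 3, so none passed 0.05.

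**Figure D2:**
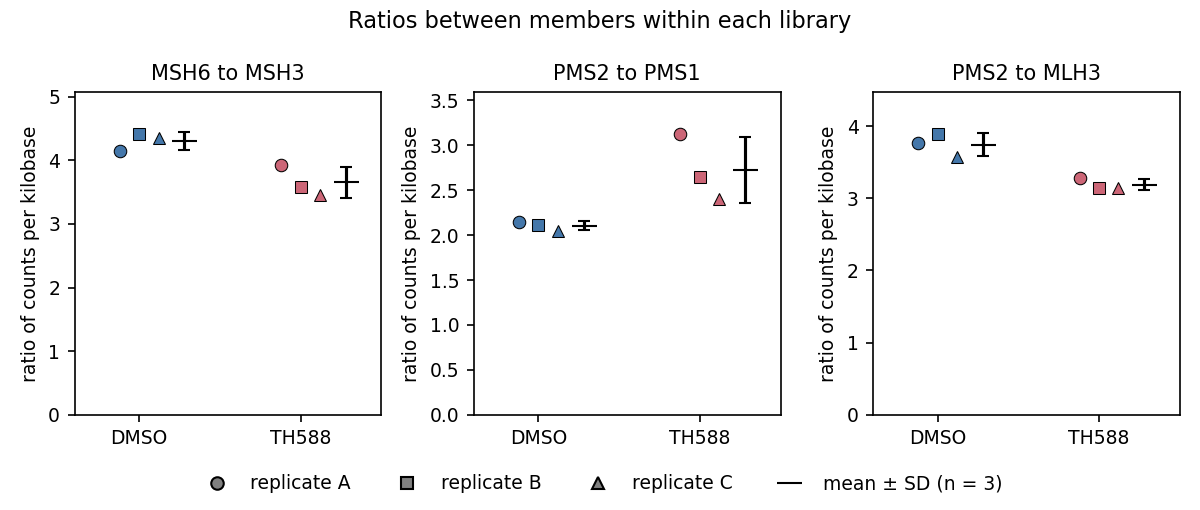
Ratio of counts per kilobase, on the exon lengths of the count table, between pairs of members (vertical axes, from 0) in each DMSO and TH588 library, with the mean ± SD beside the points. The *PMS2* to *PMS1* ratio spanned 2.05 to 2.15 with DMSO and 2.40 to 3.12 with TH588, and the other ratios were lower in every treated library, each at the smallest p of the exact test, 0.1.

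The genes that complete the repair were listed as 16 factors of gap filling and ligation, and all were tested. Of these, 13 fell, 1 rose and 2 did not pass the threshold, their median log2 fold change being -0.76. The sliding clamp *PCNA* fell from 192 ± 11.9 to 113 ± 7.65 CPM (SD, n = 3 each), and its log2 fold change was -0.76 (edgeR adjusted p = 1.29e-05). All 5 subunits of its loader fell, from *RFC2* (-1.36), *RFC4* (-1.35), *RFC5* (-1.34) and *RFC3* (-1.24) to *RFC1* (-0.84 on the log2 scale). The polymerase δ subunits *POLD3* (-1.47), *POLD1* (-0.75) and *POLD2* (-0.74) fell as well. *POLD4*, the small subunit, rose from 0.338 ± 0.165 to 1.32 ± 0.267 CPM (SD, n = 3 each; log2 fold change 1.96, edgeR adjusted p = 0.000793), at a very low level and with 21.3% of its exon bases shared with another gene. Among genes for single-strand binding proteins, *RPA2* (-0.95), *RPA1* (-0.55) and the mitochondrial *SSBP1* (-0.52) fell. *RPA3* (-0.25, adjusted p = 0.0582) and *RPA4* (0.63, adjusted p = 0.134) did not pass the threshold of edgeR's test, although *RPA3* passed it without TH588 library A, at -0.31. The ligase gene *LIG1* fell by 0.50 on the log2 scale (edgeR adjusted p = 0.00233).

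Of 6 accessory factors, 5 fell and 1 did not pass the threshold, their median log2 fold change being -0.45. The list shares *HMGB1* and *MUTYH* with the list of base excision repair genes. *CHAF1A*, a subunit of the replication-coupled chromatin assembly factor, fell by 1.28 and *HMGB1*, a chromatin protein able to bind mismatched DNA, fell by 1.10 on the log2 scale. The nuclease gene *FAN1* (-0.46), the adenine glycosylase gene *MUTYH* (-0.44), whose product removes adenine paired with 8-oxo-guanine, and the histone H3 lysine methyltransferase gene *SETD2* (-0.26) also fell. Exons on the opposite strand overlap 24.3% of the exon bases of *FAN1* and 14.1% of those of *MUTYH*. The call of *SETD2* (edgeR adjusted p = 0.0103) was lost with scaling by library size alone, where its log2 fold change was -0.16, and without DMSO library A (-0.22) or DMSO library C (-0.26). The helicase gene *MCM9* did not pass the threshold (-0.18, edgeR adjusted p = 0.173). The meiotic MutS homologs *MSH4* and *MSH5* had low levels, 0.706 and 0.106 CPM per kb with DMSO, and 47.3% of the exon bases of *MSH5* are shared with other genes on the same strand, where the handling of reads is not stated. Their log2 fold changes were -0.19 and -0.24 (adjusted p = 0.398 and 0.523 from edgeR's test), with 95% intervals from -0.58 to 0.20 and from -0.88 to 0.39.

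**Figure D3:**
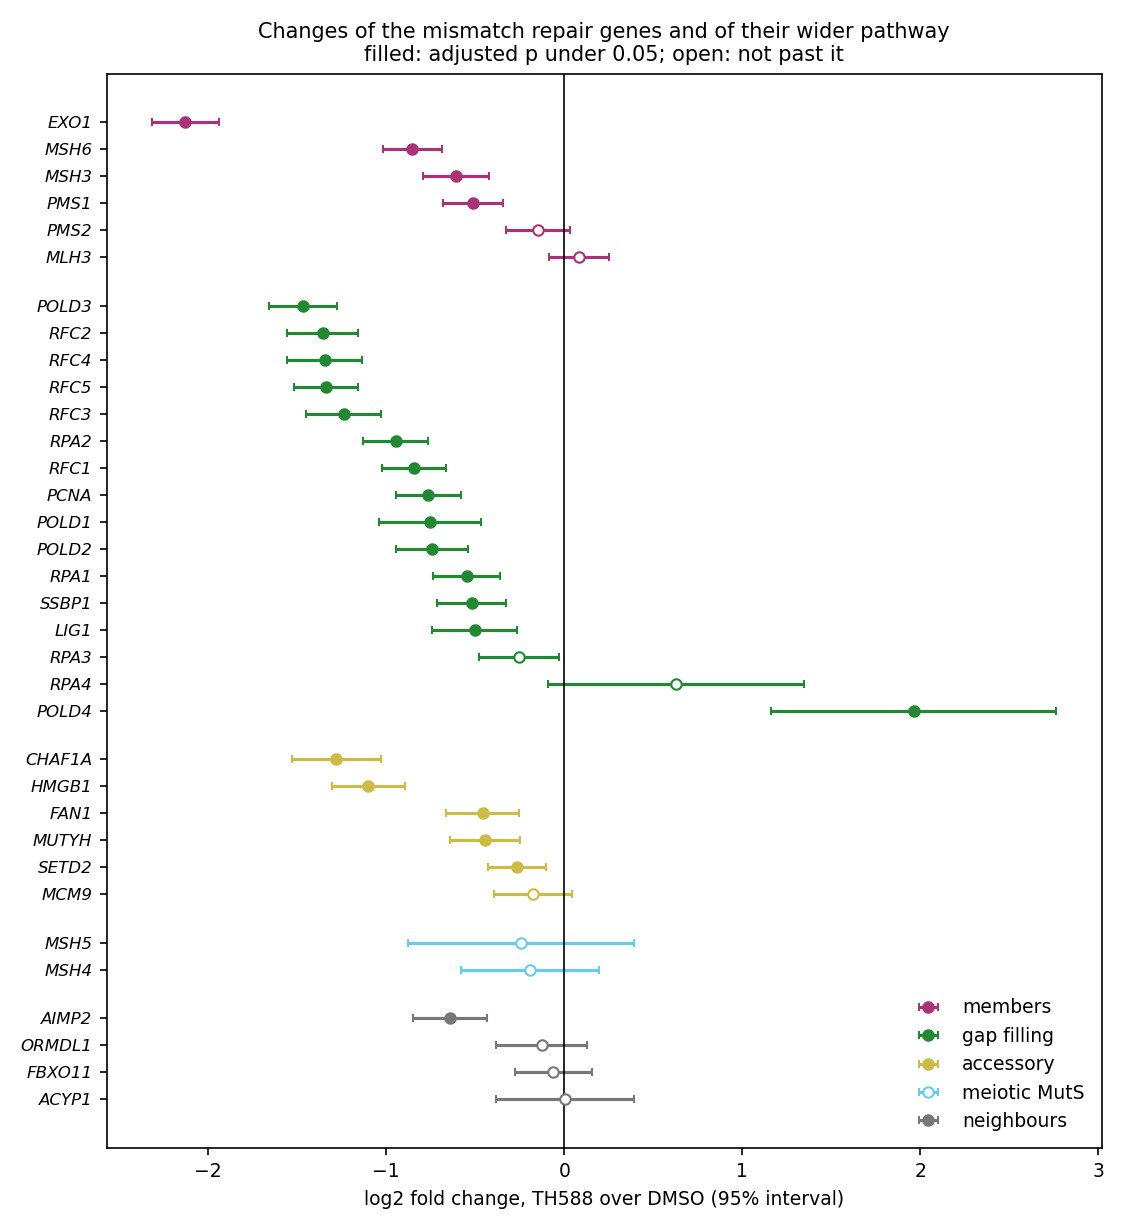
Log2 fold change of TH588 over DMSO (horizontal axis) with its 95% interval for the members, the gap filling genes, accessory factors, meiotic MutS homologs and gene neighbours, filled where the adjusted p was under 0.05. *EXO1* at -2.13 lay lowest, 13 of 16 gap filling genes were filled and below 0, and *POLD4* at 1.96 lay farthest to the right.

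All 41 genes of an S phase list, which holds none of the members, fell, their median log2 fold change being -1.30. Their summed level was 4582 to 4770 CPM in the DMSO libraries and 1828 to 2059 CPM in the TH588 libraries, and its part in the changes of the members was not tested. The largest falls in that list were those of *E2F8* (-2.55), a repressive E2F factor, and *CLSPN* (-2.21), the checkpoint mediator claspin. The gap filling list shares 4 genes with it, which are 25% of the former and 9.76% of the latter. Among the other 12 gap filling genes, 9 fell and 1 rose, with a median of -0.64.

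Other excision repair pathways differed in their counts, and the differences between lists were not tested. In a list of 24 base excision repair genes, 13 were lower, 8 were higher and 3 did not pass the threshold, the median log2 fold change being -0.26. Its extremes were the flap endonuclease gene *FEN1* (-1.38) and the glycosylase gene *NEIL3* (-1.31) on the lower side, and the glycosylase gene *NEIL1* (1.13) and the polymerase gene *POLL* (1.08) on the higher side. *FEN1* and the glycosylase gene *UNG* (-0.96), both lower, are also in the S phase list. In a list of 24 nucleotide excision repair genes, 5 were lower, 4 were higher and 15 did not pass the threshold, with a median of -0.039. Its largest rises were those of the damage recognition genes *DDB2* (1.90) and *XPC* (1.42), and its largest falls those of *RAD23B* (-0.61), whose product binds XPC, and the TFIIH subunit gene *GTF2H2* (-0.52). Of all genes tested, 25.3% were lower and 24.2% were higher, 49.6% in all. Genes called made up 87.5% of the base excision repair list and 37.5% of the nucleotide excision repair list. The counts of both lists moved with single libraries left out. Genes called then ranged from 6 to 11 in the nucleotide excision repair list, against 9 with all libraries, and from 16 to 21 in the base excision repair list, against 21.

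**Figure D4:**
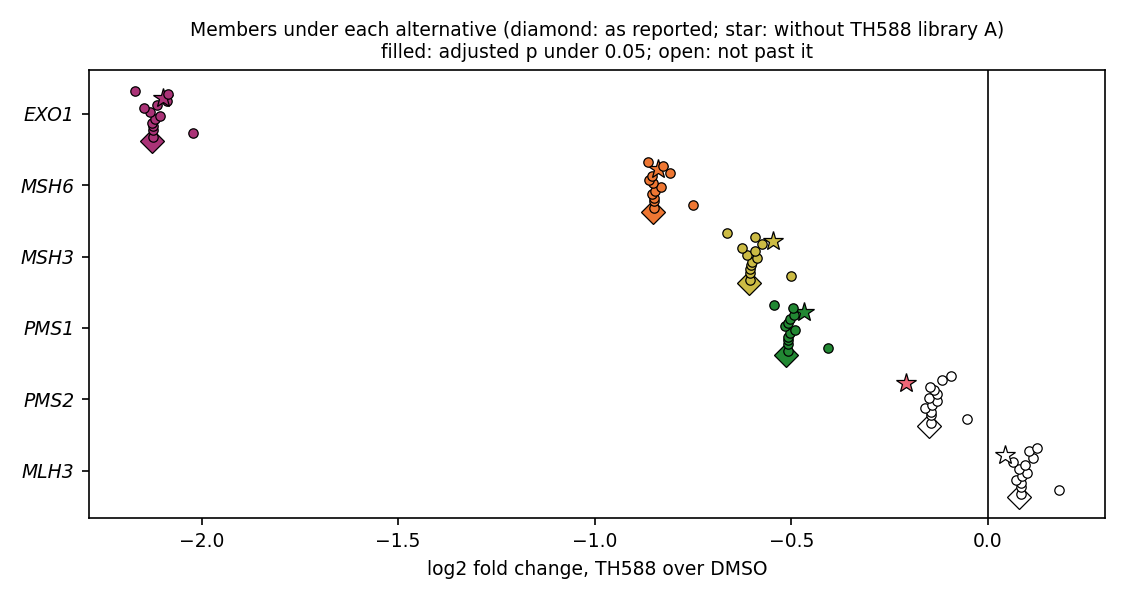
Log2 fold change of each member (horizontal axis) as reported (diamonds), without TH588 library A (stars) and under the other alternatives (circles), filled where the adjusted p was under 0.05. *EXO1*, *MSH6*, *MSH3* and *PMS1* were filled under each, *MLH3* under none, and *PMS2* only without TH588 library A, at -0.21.

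Without TH588 library A, the shallowest, the log2 fold changes of *EXO1*, *MSH6*, *MSH3* and *PMS1* were -2.10, -0.84, -0.55 and -0.47, each past the threshold of edgeR's test, and the number of members called lower was 5. Of 8 epithelial and ovarian markers, 4 (*CDH1*, *KRT7*, *PAX8* and *WT1*) had fewer than 10 counts in every library. The 8 summed to 3.82 to 4.60 CPM with DMSO and 10.9 to 12.2 CPM with TH588. Most of that sum came from *EPCAM*, which rose from 0.644 ± 0.212 to 4.74 ± 0.350 CPM (SD, n = 3 each; edgeR adjusted p = 8.23e-07), and *KRT18*, which rose from 3.56 ± 0.373 to 6.54 ± 0.435 CPM (SD, n = 3 each; edgeR adjusted p = 0.00017). The 12 markers of leukocytes, endothelium and fibroblasts summed to 15.4 to 17.0 CPM with DMSO and 17.6 to 19.0 CPM with TH588, and 4 of them (*CD3E*, *LYZ*, *PECAM1* and *CDH5*) had fewer than 10 counts in every library. The part of these markers in the results was not tested.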

How the data were processed

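Polyadenylated RNA of A2780 cells was sequenced from 3 independent experiments per treatment. The authors aligned the reads to GRCh38 with TopHat and counted them per gene with featureCounts 1.4.6. The authors deposited raw counts without normalization, together with exon lengths. Strand, multi-mapping and overlap settings are not given in the sources used here. Identifiers were matched to symbols for 57754 of 58336 genes. Coordinates are those of the deposited table, on GRCh38, and lengths of canonical transcripts came from GENCODE's annotation of the same assembly.

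Counts were compared with edgeR 4.0.16 in R 4.3.3 by the quasi-likelihood test after TMM normalization and the default filter on low counts, which left 15844 genes. P-values were adjusted over these by the Benjamini-Hochberg method, with a threshold of 0.05. Each standard error was derived from F, as log2 fold change over its root, and 95% intervals use the t distribution. Ratios were compared by exact permutation over 3 against 3 libraries. The procedure was tested on simulated counts in which far fewer genes changed than were called here. Its error rate with as many changed genes as in these data was not tested. Replicates of a group differed by more than sampling noise (chi-square per degree of freedom 25.0 to 176), so each library counted once. Intervals and floors cover counting error and the spread of these libraries only.

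The members and lists were chosen with earlier results of these data known. The genes named are all members, all genes of the short lists, the *PMS2* pseudogenes that passed the filter, the 2 largest rises and falls called in each longer list and, for each member, the gene with the highest Pearson r, except for a few results that are not reported here. The alternatives comprised scaling by DESeq2's size factors or by library size alone, TMM without the 10 most abundant genes, DESeq2 1.42.0, limma-voom (limma 3.58.1), omission of the filter, a minimum of 10 counts per library throughout, an adjusted p under 0.01, the replicate letter as a block and each library left out in turn. Canonical transcript lengths and the E2F words were added after seeing the data. Promoter windows are RefSeq's on GRCh38.p14, found for each member.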

Additional observations from a re-analysis of the deposited data

How the results depend on the processing

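*EXO1*, *MSH6*, *MSH3* and *PMS1* kept their direction and stayed past the threshold under every alternative run, and *MLH3* stayed above 0 and not past it. *PMS2* stayed below 0 and passed the threshold only without TH588 library A, ranging from -0.21 to -0.093 when single libraries were left out. Scaling by library size alone put the median over all genes at 0.126 on the log2 scale against 0.019, made 60.4% of called genes higher against 48.9%, and put *EXO1*, *MSH6*, *MSH3*, *PMS1*, *PMS2* and *MLH3* at -2.02, -0.75, -0.50, -0.41, -0.052 and 0.18. Under that scaling *FBXO11*, *PMS2CL* and *PMS2P7* changed sign (0.030, 0.0026 and 0.066), and 5 pseudogenes were called against 3. *ACYP1* (-0.12) and *PMS2P14* (0.94) changed sign with limma-voom. With single libraries left out, *FBXO11* ranged from -0.18 to 0.0091, *ACYP1* from -0.25 to 0.15, *PMS2P7* from -0.17 to 0.23 and *PMS2P14* from -2.52 to 0.11, and *FBXO11* passed the threshold as lower without TH588 library A. The cause was not tested.

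The labels do not say whether DMSO and TH588 libraries of the same letter were paired. The correlation of deviations from the group means between libraries of 1 letter was -0.071, -0.083 and 0.00082. Each mean is over 3 libraries only, so these values cannot decide it. Under the replicate block, 4 members were lower, as without it, with *EXO1* at -2.13, *MSH6* at -0.85, *MSH3* at -0.61 and *PMS1* at -0.51, *ACYP1* changed sign (-0.023), and genes called numbered 7195 against 7852. Over all results that are single genes outside the members, 15 values changed sign, 10 lost and 6 gained significance. At the depth of TH588 library A, 3 counts are 0.112 CPM, against 0.0276 CPM in the deepest library, which limits what can be said of *MSH5*, *RPA4* and *POLD4*.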

Other observations

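For 5 of the members, the gene whose log2 CPM followed it most closely over the 6 libraries was sought among 9761 other genes whose mean log2 CPM was 2 or more. For *EXO1* it was *RBBP8* (Pearson r = 0.9997), which encodes the end resection factor CtIP, with a log2 fold change of -1.31. For *MSH6* it was *XRCC6* (r = 0.9993, log2 fold change -0.64), which encodes Ku70, for *MSH3* it was *CTCF* (r = 0.998, log2 fold change -0.42), a chromatin insulator protein, and for *PMS1* it was *RNASEH2B* (r = 0.9997, log2 fold change -1.17), a ribonuclease H2 subunit. As both treatments set these values, 1254 to 1789 genes had an r over 0.95 with each of those 4 members, and the closest gene is a description of 6 points. For *PMS2* it was *DYNLL2* (r = 0.994), with 83 genes over 0.95.

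Counts of *PMS2P10* and *PMS2P14* varied widely between libraries of 1 group, while those of more abundant copies such as *PMS2P1* did not. *PMS2P10* had 1555 counts in TH588 library B, 122 in TH588 library C and 3 in TH588 library A, against 59, 128 and 3 counts across DMSO libraries A to C. *PMS2P14* had 209, 237 and 0 counts across DMSO libraries A to C, against 0, 49 and 276 counts across TH588 libraries A to C. The cause was not tested. *PMS2P9* and *PMS2P12* did not pass the filter on low counts.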
